A study of Canis lupus familiaris with 28 samples.

Results

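The glucocorticoid receptor gene NR3C1 and 8 of its known target genes were followed in whole blood RNA of dogs with atopic dermatitis (AD) and of healthy dogs. The labels name the material whole blood, whereas the methods speak of nuclear cells of the blood. The targets were FKBP5, TSC22D3, PER1, DUSP1, ZBTB16, KLF9, SGK1 and CEBPD. Every probe whose gene name on the array equaled a listed symbol was taken, which gave 17 of 43603 probes for 8 of the 9 listed genes. No probe carried the name CEBPD. The data came from 20 AD dogs and 8 healthy dogs, and every dog had its own array. The RNA of the dog was labelled with Cy5 and a common reference, pooled from 13 other healthy dogs, with Cy3. The values are log2 ratios of the dog to this reference, centered on the array median, so that 0 marks a probe at the median ratio of its array. According to the methods, the dogs were client-owned, of various breeds and of both sexes. The AD dogs were sampled while signs were visible and had been kept off anti-inflammatory drugs in the weeks before allergy testing. The healthy dogs were blood donors at a routine check. The labels give the disease state of each dog, but no breed, sex, age or drug history of single dogs.

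The dog's channel was well above background for 84.3% to 90.3% of probes in healthy dogs and for 51.7% to 87.5% in AD dogs. The arrays, 28 in all, came from 8 slides and 5 scan days, and no slide or scan day held dogs of both groups, so slide and disease cannot be told apart. All tested markers of neutrophils, T cells, red cells, platelets and NK cells were above background on all 28 arrays. This held for 8 of 9 monocyte markers, 5 of 8 B cell markers and 5 of 7 eosinophil and basophil markers. Over the probes kept, the log2 ratios of 2 AD arrays correlated as low as r = -0.397, and those of 2 healthy arrays as low as -0.332. The direction was kept, since the methods state the same dyes for every array. In whole blood, fewer cells of a type and less RNA per cell cannot be told apart.

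NR3C1 encodes the receptor for cortisol and for synthetic glucocorticoids. Without hormone the receptor is held in the cytoplasm by HSP90 and its co-chaperones, and with hormone it enters the nucleus and changes the transcription of many genes. FKBP5, a co-chaperone that lowers the receptor's affinity for hormone, is one of its most strongly induced targets and forms a short feedback loop. TSC22D3 (GILZ) and DUSP1 carry part of the anti-inflammatory action, PER1, ZBTB16 and KLF9 encode transcriptional regulators, and SGK1 encodes a kinase. In blood, glucocorticoids are known to raise the number of circulating neutrophils, and they are drugs in common use against the itch of AD.

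The arrays carried 60-base probes. The sequences below are shown to tie values of the receptor, of DUSP1 and of TSC22D3 to the coding sequence measured, and to set pairs of probes of TSC22D3 and KLF9 side by side. The brightest TSC22D3 probe, whose values lead for that gene, lies at chrX:81235762-81235821 and is not shown. They are written 5′ to 3′ on the transcript strand, with positions in the build canFam3 named in the file headers. Capitals mark the 8 bases that both TSC22D3 probes share.
NR3C1, chr2:38145653-38145712, minus strand: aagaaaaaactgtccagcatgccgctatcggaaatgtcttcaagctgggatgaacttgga
DUSP1, chr4:39590127-39590186, plus strand: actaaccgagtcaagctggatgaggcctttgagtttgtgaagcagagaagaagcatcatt
TSC22D3, chrX:81236953-81237012, minus strand: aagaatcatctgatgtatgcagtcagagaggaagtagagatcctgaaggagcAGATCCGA
TSC22D3, chrX:81236901-81236960, minus strand: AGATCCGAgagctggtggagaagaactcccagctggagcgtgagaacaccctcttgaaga
KLF9, chr1:87109718-87109777, plus strand: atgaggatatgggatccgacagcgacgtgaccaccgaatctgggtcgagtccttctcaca
KLF9, chr1:87109899-87140418, plus strand: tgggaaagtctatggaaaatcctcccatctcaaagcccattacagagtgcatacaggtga
The NR3C1 probe lies in the part that encodes the DNA-binding domain. The TSC22D3 probes shown follow each other in the coding sequence. The second KLF9 probe, 60 bases long, was placed by the array's annotation over 30520 bases, so it is split between exons.

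The first question was whether the receptor and its targets differed between AD and healthy dogs. None of the 8 measured genes passed the threshold of an adjusted p of 0.085 in limma, read from the brightest probe of each gene. Over all 30202 probes left by a filter on signal, 0% passed. The paper, with its own filter on signal, reported transcripts that differed at this threshold. The genes with an unadjusted p under 0.05 were DUSP1 and TSC22D3, 2 of 8 genes and both higher in AD dogs. Over all probes 6.12% had such a p, 1.65% as higher and 4.46% as lower in AD dogs. The mean log2 ratio was higher in AD dogs for 6 of the 7 targets, with ZBTB16 and the receptor itself as the 2 lower genes. The median difference over the 8 genes was 0.17, against -0.01 over all probes.

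**Figure D1:**
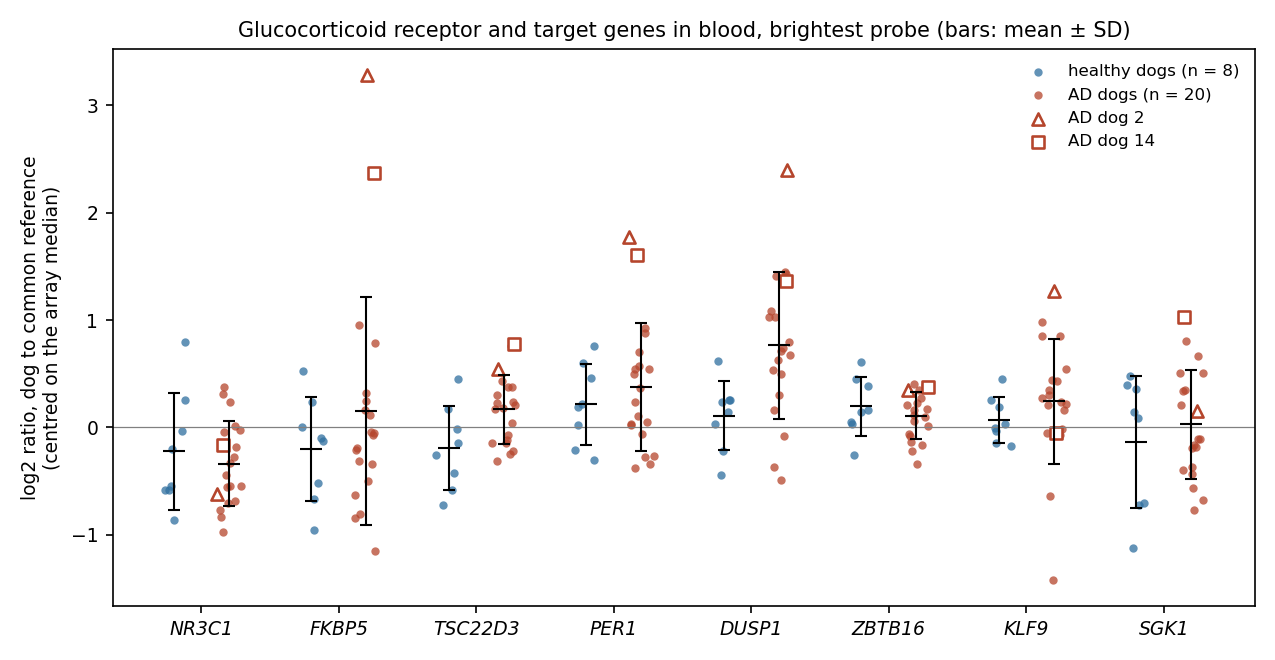
Centered log2 ratio of dog to common reference (y axis) for the brightest probe of each gene (x axis), 1 point per dog, with healthy dogs in blue, AD dogs in red and black bars for mean ± SD. The groups overlapped in every gene, DUSP1 had 13 of 20 AD dogs above all healthy dogs, and AD dogs 2 and 14 (open triangle and open square) stood apart in FKBP5 at 3.29 and 2.37.

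The receptor showed no difference that could be resolved. In AD dogs NR3C1 ran from -0.98 to 0.38 with a median of -0.38 (mean -0.34 ± 0.39, SD, n = 20). In healthy dogs it ran from -0.86 to 0.80 with a median of -0.37 (mean -0.22 ± 0.55, SD, n = 8). No AD dog lay above the highest healthy dog, and 1 lay below the lowest. The difference, AD minus healthy, was -0.12 on the log2 scale (SE 0.180, 95% interval -0.49 to 0.25), with an adjusted p of 0.916 in limma. It was -0.21 without healthy dog 1, 0.0279 without healthy dog 2 and -0.0499 without healthy dog 4. The other 3 probes of NR3C1 gave differences of 0.08, 0.20 and -0.04, so the direction was not shared among the probes of the gene. Within AD dogs these 4 probes were only loosely related to each other. Their pairwise r was -0.0228 to 0.487 over the 20 AD dogs. In healthy dogs it was 0.624 to 0.957, with n = 8.

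FKBP5, the feedback co-chaperone, was the target with the widest spread among AD dogs. Its log2 ratio ran from -1.15 to 3.29 in AD dogs with a median of -0.06 (mean 0.15 ± 1.06, SD, n = 20). In healthy dogs it ran from -0.96 to 0.53 with a median of -0.12 (mean -0.20 ± 0.49, SD, n = 8). The AD dogs overlapped the whole healthy range, while 4 lay above it and AD dogs 2 and 14 far above it. The SD in AD dogs was at percentile 98.8 of all probes kept. The difference was 0.36 (SE 0.367, 95% interval -0.39 to 1.104, adjusted p of 0.879 in limma). With the 2 highest dogs set aside, the mean of the other 18 AD dogs was -0.14, which left a difference of 0.06, and without AD dog 2 alone the difference was 0.19.

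A further probe, listed under another name but described as FKBP5, was read beside the named one. In AD dogs both probes gave nearly the same order, with r = 0.948 (permutation p = 1e-05, the smallest these permutations can give) and rho = 0.821 (permutation p = 4e-05, n = 20). Without the 2 dogs farthest from the median, r was 0.782. The second probe read 2.78 in AD dog 2 and 2.02 in AD dog 14, and the next highest was AD dog 9 at 0.78, whereas the named probe had AD dog 17 in that place at 0.95.

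DUSP1 and TSC22D3, the anti-inflammatory effectors, showed the largest separation from healthy dogs among the targets relative to its error. DUSP1, a phosphatase that switches off MAP kinases, ran from -0.49 to 2.40 in AD dogs with a median of 0.73 (mean 0.76 ± 0.69, SD, n = 20). The healthy dogs ran from -0.45 to 0.62 with a median of 0.19 (mean 0.11 ± 0.32, SD, n = 8). The groups overlapped, with 13 AD dogs above all healthy dogs and 3 below the healthy mean. The difference of 0.65 had an SE of 0.242 and a 95% interval of 0.16 to 1.15, with an unadjusted p of 0.0111 and an adjusted p of 0.548 in limma. It fell to 0.33 (unadjusted p of 0.0768 in limma) when the raw signals were corrected with normexp and loess.

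TSC22D3, the leucine zipper protein that binds and blocks inflammatory transcription factors, was measured by 3 probes. The brightest ran from -0.31 to 0.77 in AD dogs with a median of 0.20 (mean 0.17 ± 0.32, SD, n = 20). Healthy dogs spread from -0.72 to 0.46 with a median of -0.20 (mean -0.19 ± 0.39, SD, n = 8). Only 3 AD dogs exceeded the highest healthy dog, and 3 lay below the healthy mean. The difference was 0.36 (SE 0.146, 95% interval 0.06 to 0.66), with an unadjusted p of 0.0193 and an adjusted p of 0.624 in limma. The probes shown above gave 0.39 and 0.43, and their unadjusted p in limma was 0.0246 and 0.0162. These 2 probes, which share 8 bases, correlated with r = 0.915 over AD dogs, while the brightest probe correlated with them at 0.280 and 0.470.

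The TSC22D3 difference rested on 1 of the 2 slides of healthy dogs. Its unadjusted p in limma was 0.0649 without healthy dog 5 and 0.0554 without healthy dog 7, both of slide 3. On slide 2 the 4 healthy dogs read -0.14 to 0.46, and on slide 3 the 4 others read -0.72 to -0.26, so the slides did not overlap. Without slide 3 the difference was 0.05 (unadjusted p of 0.776 in limma), and without slide 2 it was 0.67 (unadjusted p of 0.000809). The TSC22D3 probes shown above by sequence had the same order of slides with smaller steps, at AD minus slide 2 differences of 0.20 and 0.26. DUSP1 was 0.47 without slide 3 (unadjusted p of 0.165 in limma) and 0.84 without slide 2 (unadjusted p of 0.0188). For FKBP5 and SGK1 the difference was also near 0 without slide 3, at -0.00392 and 0.00197.

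**Figure D2:**
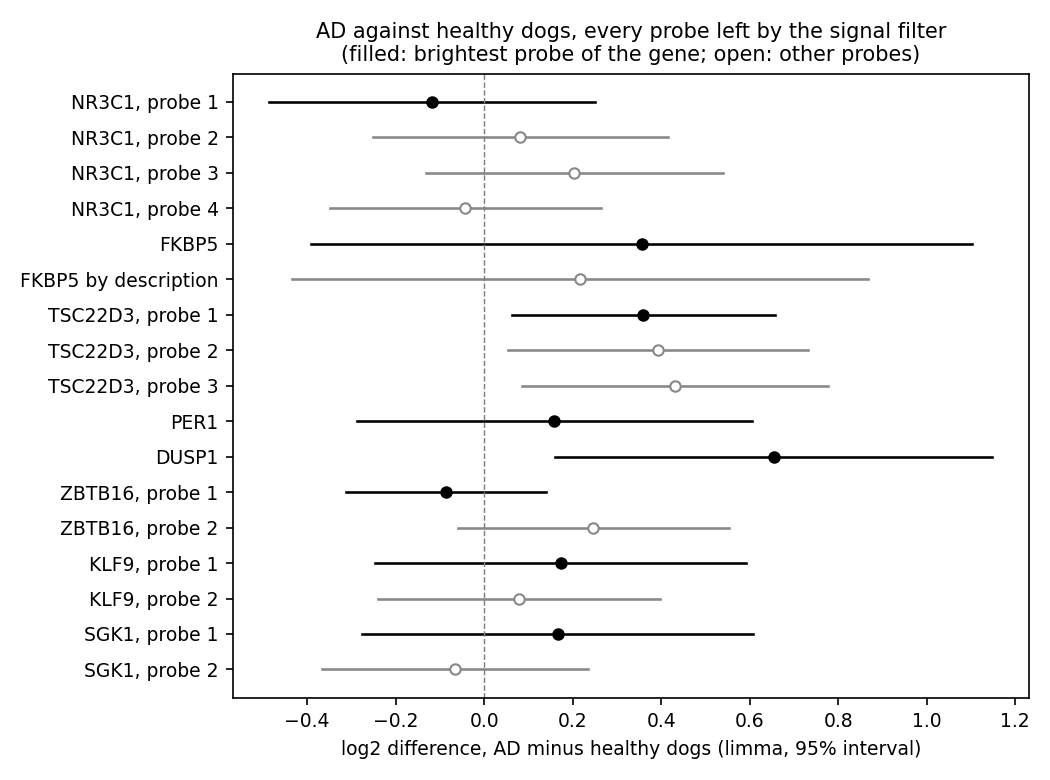
Log2 difference, AD minus healthy dogs (x axis), with its 95% interval from limma, for the member probes that passed the signal filter (y axis), the FKBP5 probe matched by description included. Only the intervals of DUSP1 (0.16 to 1.15) and of the 3 TSC22D3 probes lay above 0, and the 4 NR3C1 probes lay on both sides of 0.

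Among the transcriptional regulators, PER1 encodes a repressor of the circadian clock. It ran from -0.38 to 1.77 in AD dogs with a median of 0.30 (mean 0.38 ± 0.60, SD, n = 20). The healthy range was -0.30 to 0.76 with a median of 0.20 (mean 0.22 ± 0.38, SD, n = 8). The groups overlapped over the whole healthy range, and the difference of 0.16 had an SE of 0.219 and an adjusted p of 0.907 in limma. It was between 0.0845 and 0.0970 when healthy dog 2, healthy dog 3, AD dog 2 or AD dog 14 was left out. PER1 was the target whose direction turned when the dog's channel was read alone, at -0.37 (adjusted p of 0.464 in limma). On slide 3 alone, the healthy mean of PER1 was 0.37, almost the AD mean.

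ZBTB16, a zinc-finger repressor also called PLZF, was the least variable target among AD dogs by its brightest probe. It ran from -0.34 to 0.40 in AD dogs with a median of 0.14 (mean 0.11 ± 0.22, SD, n = 20). Among healthy dogs ZBTB16 ran from -0.26 to 0.61 with a median of 0.15 (mean 0.20 ± 0.28, SD, n = 8). No AD dog lay above the highest healthy dog. Its SD in AD dogs was at percentile 4.91 of all probes. Among healthy dogs KLF9 varied less, with an SD of 0.21. The difference was -0.09 (SE 0.111, adjusted p of 0.902 in limma), and it was -0.15 without healthy dog 3, -0.0273 without healthy dog 5 and -0.0510 without healthy dog 7. A second probe gave 0.25, with an SD of 0.37 in AD dogs and 7 AD dogs above the highest healthy dog. The last probe did not pass the signal filter. Its median signals of 48.4 and 83.1 in the dog's channel and 58.4 in the reference were under 100. As for TSC22D3, the healthy slides did not overlap, at -0.26 to 0.15 on slide 2 and 0.16 to 0.61 on slide 3, and the order of the slides was the opposite one.

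KLF9, a Krüppel-like factor, ran from -1.43 to 1.27 in AD dogs with a median of 0.25 (mean 0.24 ± 0.58, SD, n = 20). In healthy dogs it stayed between -0.17 and 0.45 with a median of 0.01 (mean 0.07 ± 0.21, SD, n = 8). The AD dogs spread to both sides of the healthy range, with 5 above and 2 below it. The lowest value came from AD dog 20, where both KLF9 probes were not well above background and the array had the fewest probes above background, 51.7%. The difference was 0.17 (SE 0.206, adjusted p of 0.891 in limma), and 0.26 without that dog. The second probe, placed over an intron, gave 0.08 and followed the first with r = 0.784 over AD dogs.

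SGK1, the serum- and glucocorticoid-regulated kinase that acts on ion channels, ran from -0.77 to 1.02 in AD dogs with a median of -0.11 (mean 0.03 ± 0.51, SD, n = 20). Among healthy dogs SGK1 ran from -1.12 to 0.48 with a median of 0.11 (mean -0.14 ± 0.62, SD, n = 8). The mean was higher in AD dogs and the median lower, and the difference of 0.17 had an SE of 0.217 and an adjusted p of 0.903 in limma. It was 0.0257 without healthy dog 1, 0.0849 without healthy dog 7, 0.0823 without healthy dog 8 and 0.25 without healthy dog 4. Its second probe gave -0.07. Over the slides of AD dogs its mean ran from -0.38 on slide 7 to 0.76 on slide 6. The moderated F test of limma over the 6 AD slides gave SGK1 the smallest unadjusted p of the members, 0.0189, with an adjusted p of 0.193. For the other members this unadjusted p was at least 0.125, and over all probes 3.74% had an adjusted p of at most 0.05. FKBP5 had a wider step of slide means, from -0.58 on slide 4 to 1.09 on slide 6, the slide of AD dog 14.

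A check was made of the 2 channels. The reference RNA was the same on every array, and yet 39.1% of probes differed at the threshold between the arrays of AD and of healthy dogs in the reference channel alone. Among them, DUSP1 was higher by 0.37 (adjusted p of 0.00102 in limma), SGK1 was higher by 0.56 (adjusted p of 0.00301) and PER1 fell by 0.50 (adjusted p of 0.0321) on the arrays of AD dogs. TSC22D3 was higher by 0.23 (adjusted p of 0.0628). In the dog's channel alone, where 4.14% of probes passed, 3 of the 8 genes passed the threshold. DUSP1 read 1.00 higher in AD dogs (adjusted p of 0.0139), TSC22D3 0.55 (adjusted p of 0.0525) and SGK1 0.86 (adjusted p of 0.0508). For these 3 genes the reference channel moved the same way, and its part in the result was not tested.

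The plot of levels by dog shows 2 dogs that stood apart, AD dogs 2 and 14, which are described here after their values were seen. FKBP5 was 3.29 in AD dog 2 and 2.37 in AD dog 14, that is 9.77-fold and 5.18-fold over the reference, against 0.95 in the next AD dog and at most 0.53 in healthy dogs. On the array of AD dog 2 only 3 of 30202 probes were at least as high as FKBP5, and 54 on that of AD dog 14, with the FKBP5 probe itself counted in both. PER1 was also highest in these dogs, at 1.77 and 1.61, where the highest healthy dog read 0.76.

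Other targets followed in part. DUSP1 was 2.40 in AD dog 2, the highest of all, and 1.37 in AD dog 14, the fifth of the AD dogs. TSC22D3 was 0.55 and 0.77, ranks 3 and 1. KLF9 was 1.27 in AD dog 2 and -0.05 in AD dog 14, while SGK1 was 0.15 and 1.02, so that each of these genes was highest in only 1 of the dogs. ZBTB16 was 0.35 and 0.37 by its brightest probe, inside the healthy range. Its second probe read 0.39 and 1.02, where the highest healthy dog read 0.59. NR3C1 was -0.62 and -0.16, ranks 15 and 7 of 20.

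Counted over the 7 targets, 5 lay above the highest healthy dog in AD dog 2 and 5 in AD dog 14. FKBP5, by which these dogs were picked out, is among the 5 in both dogs. In the other AD dogs the number of targets above the highest healthy dog was at most 3, and it was 0 in 4 of them. The mean over the 7 targets, with FKBP5 included, was 1.40 in AD dog 2 and 1.07 in AD dog 14. Over all AD dogs it ran from -0.18 to 1.40 with a median of 0.22, and over healthy dogs from -0.15 to 0.15 with a median of 0.01. Many probes left the healthy range on these arrays as well. On the array of AD dog 14, 25.8% of all probes lay above the highest healthy dog, the largest share of any AD dog, and on that of AD dog 2 it was 11.8%, below the AD median of 15.4%.

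**Figure D3:**
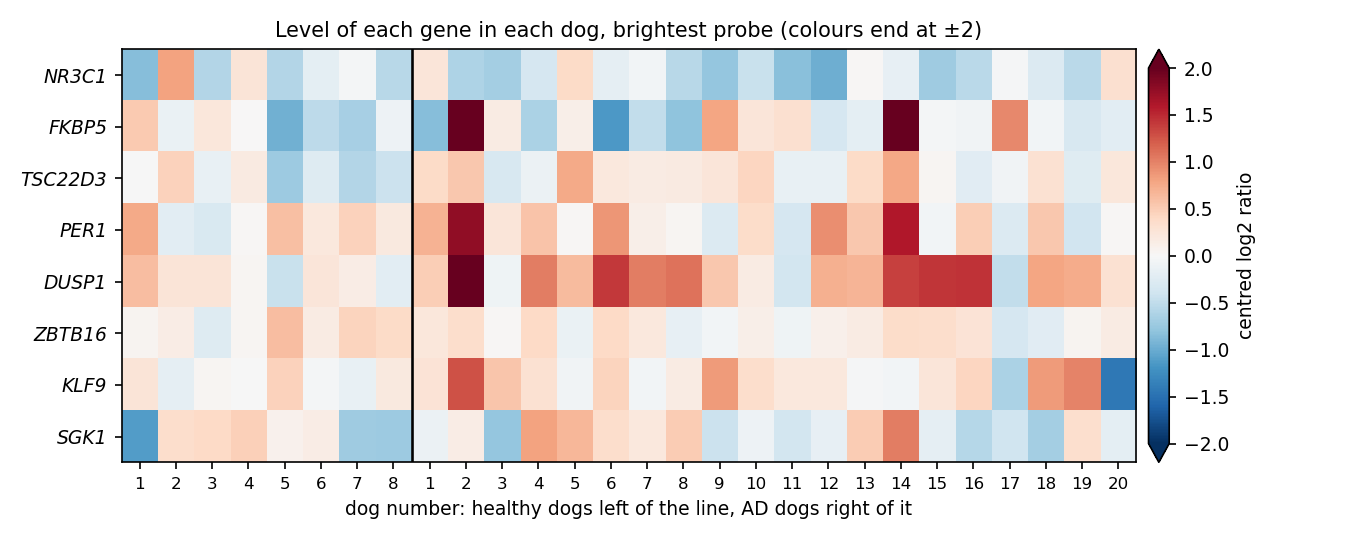
Centered log2 ratio of the brightest probe of each gene (rows) in each of the 8 healthy and 20 AD dogs (columns, numbered as in the labels), in red above and in blue below the array median. AD dogs 2 and 14 share dark red in FKBP5 and PER1, whereas AD dogs 15 and 16 exceeded all healthy dogs in DUSP1 alone, at 1.43 and 1.45.

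Of the blood cell markers, some lists stood apart in both dogs and others did not. The mean log2 ratio of 12 neutrophil markers was 1.50 in AD dog 2 and 1.13 in AD dog 14, the highest and second highest of the AD dogs, whose median was 0.34. For 8 of the 12 markers both dogs were among the 5 highest AD dogs, and the share over all probes was not computed. The mean of the B cell markers was -0.48 and -0.85, ranks 18 and 19 of 20, and that of the NK and cytotoxic markers -0.89 and -0.70, ranks 19 and 16. The T cell markers were at 0.11 and -0.12, ranks 10 and 15, but the genes of this list were split. For 3 of the 13, CD3D, CD3G and LCK, both dogs were among the 5 lowest AD dogs. CD4 was 1.58 and 1.01, above the highest healthy dog at 0.56. These genes were named after their values were seen, and the share over all probes was not computed. For the eosinophil and basophil markers the dogs differed, at -0.18 and 0.43, ranks 16 and 4. The monocyte markers differed the other way, at 0.11 and -0.54, ranks 5 and 18. Red cell markers read 0.15 and 0.92, ranks 13 and 6, and platelet markers 0.04 and -0.03, ranks 6 and 8. The share of probes above background was 82.4% for AD dog 2 and 60.2% for AD dog 14, and the dogs lay on slides 1 and 6. The part of these cell types in the FKBP5 levels was not tested.

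The next question was whether the genes moved together from dog to dog. All 28 pairs were correlated within each group, in a family of 56 relations. In AD dogs the median r was 0.294, with 22 of 28 pairs above 0, whereas the median over all pairs of probes was -0.004, with 49.5% above 0. With slide means removed the median r of the 28 pairs was 0.168. An r of at least 0.5 was reached by 4 of the 28 pairs, and 9.80% of all pairs of probes reached it. No pair passed an adjusted p of 0.05 in AD dogs, by r or by rho. An unadjusted permutation p under 0.05 was found for 8 pairs by r and for 5 by rho. For most of the 28 pairs rho was lower than r. The share of such p over all pairs of probes was not computed.

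DUSP1, PER1 and ZBTB16 formed the closest group in AD dogs. DUSP1 and ZBTB16 correlated with r = 0.653 (permutation p = 0.00174) and rho = 0.594 (permutation p = 0.00659, n = 20), with adjusted p of 0.0647 and 0.223. Without the 2 dogs farthest from the median of DUSP1, r was 0.527, and with slide means removed it was 0.650. PER1 and DUSP1 gave r = 0.643 (permutation p = 0.00231) and rho = 0.459 (permutation p = 0.0439), with adjusted p of 0.0647 and 0.273, and r of 0.409 without 2 dogs and 0.706 with slide means removed. PER1 and ZBTB16 gave r = 0.588 (permutation p = 0.00628) and rho = 0.558 (permutation p = 0.0121), with adjusted p of 0.0879 and 0.223, and r of 0.491 and 0.461 in the same checks.

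The receptor took part in 2 of the closer relations, with opposite signs. NR3C1 and KLF9 gave r = -0.581 (permutation p = 0.00573) and rho = -0.520 (permutation p = 0.0195), with adjusted p of 0.0879 and 0.223. Without the 2 dogs farthest from the median of NR3C1, r was -0.423, and with slide means removed it was -0.641. NR3C1 and TSC22D3 gave r = 0.530 (permutation p = 0.0168) and rho = 0.498 (permutation p = 0.0276), with adjusted p of 0.188 and 0.223, and r of 0.439 and 0.497 in these checks. In healthy dogs the same pairs gave -0.743 and 0.599. With the remaining targets, NR3C1 showed an r between -0.154 and 0.345 in AD dogs. The negative relation of NR3C1 and KLF9, the lowest r of the AD pairs, was weaker in 2 other settings. With the mean of all probes of each gene no AD pair lay below -0.357, and with the dog's channel alone none lay below -0.183.

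The relations of FKBP5 to several targets turned on AD dogs 2 and 14. With PER1 the r of 0.464 (permutation p = 0.0395, adjusted p of 0.232) stood beside a rho of -0.159 (permutation p = 0.499). Without those dogs, which are the 2 farthest from the FKBP5 median, r was -0.597. With DUSP1, r went from 0.271 to -0.636 in the same way, with ZBTB16 from 0.0654 to -0.594 and with SGK1 from 0.0560 to -0.534. Among the other 18 AD dogs FKBP5 thus ran opposite to these 4 targets, a description of dogs chosen by their FKBP5 level that was not tested.

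In healthy dogs the median r over the 28 pairs was -0.170, with 10 pairs above 0, against a median of -0.006 and 49.5% above 0 over all pairs of probes. An r of at least 0.5 was reached by 7 of the 28 pairs, and 17.5% of all pairs of probes reached it. With slide means removed the median was -0.0977, and 2 of 28 pairs reached 0.5 where 18.3% of all pairs of probes did. The most negative pair was FKBP5 and ZBTB16, with r = -0.789 (exact permutation p = 0.0206) and rho = -0.857 (exact permutation p = 0.0107, n = 8), and adjusted p of 0.192 and 0.223. Without 2 dogs r was -0.747, and with slide means removed it was -0.437. DUSP1 and ZBTB16, the closest pair in AD dogs, gave r = -0.678 in healthy dogs (exact permutation p = 0.0625, adjusted p of 0.252) and -0.422 with slide means removed. PER1 and ZBTB16, of the same group, gave nearly the same r in healthy dogs, 0.587, as in AD dogs, 0.588, and PER1 and DUSP1 gave -0.0534. No pair passed an adjusted p of 0.05 in healthy dogs, with 2 unadjusted p under 0.05 by r and 4 by rho. Here too, the share of such p over all pairs of probes was not computed. The difference in r between the groups was not tested.

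**Figure D4:**
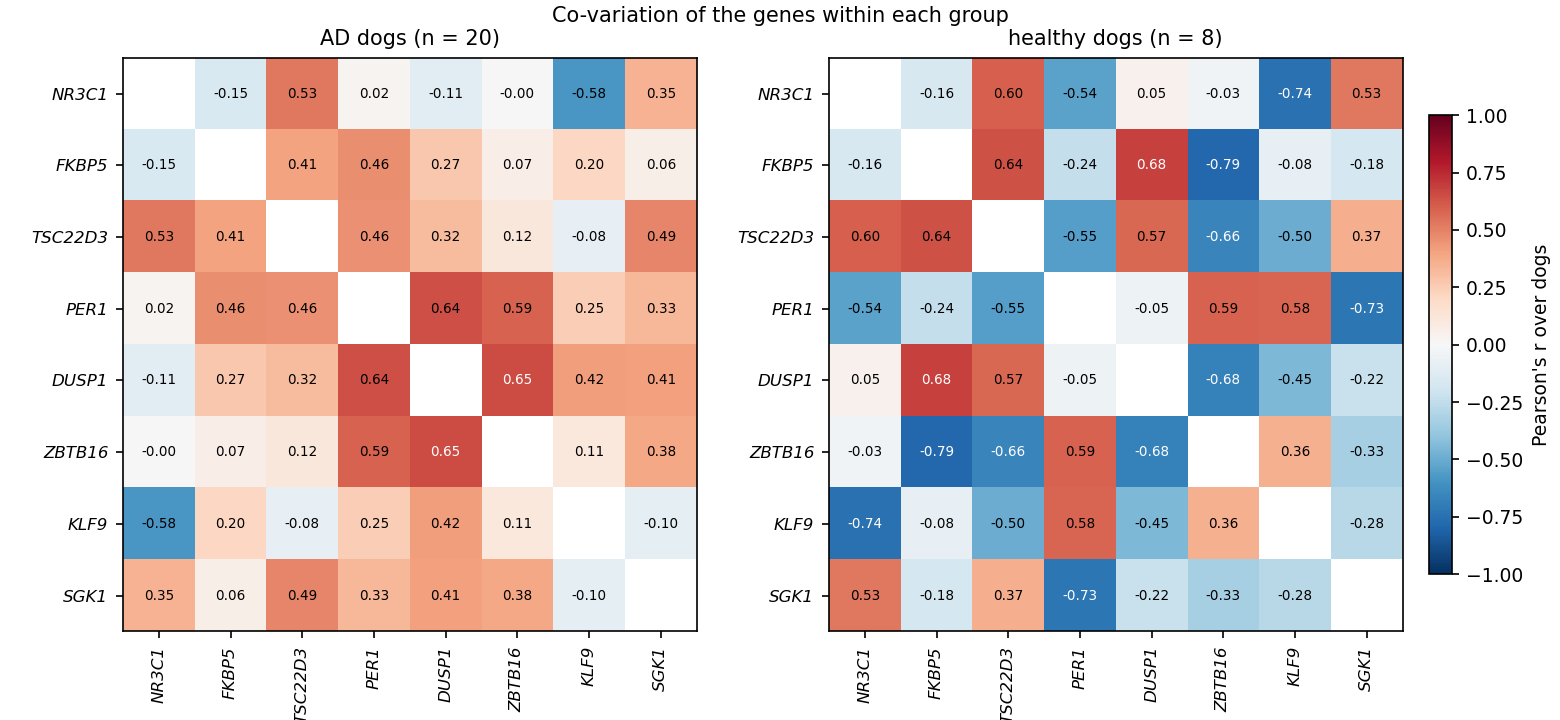
Pearson's r of the centered log2 ratios over dogs for each pair of genes, with the same 8 genes on both axes, in AD dogs (left) and healthy dogs (right), in red above and in blue below 0. In AD dogs 22 of 28 pairs were above 0, and in healthy dogs 10 of 28, with opposite signs for DUSP1 and ZBTB16 (0.653 and -0.678) and like values for PER1 and ZBTB16 (0.588 and 0.587).

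Each gene was then set against array quality and the mean level of 8 lists of blood cell markers, in a family of 72 relations over the 20 AD dogs. DUSP1 rose with the neutrophil markers, with r = 0.813 (permutation p = 2e-05, adjusted p of 0.00144) and rho = 0.764 (permutation p = 0.00017, adjusted p of 0.0122). Without the 2 dogs farthest from the median of the markers r was 0.706, and with slide means removed it was 0.807. The neutrophil markers themselves ran from -0.33 to 1.50 in AD dogs (mean 0.40 ± 0.48, SD, n = 20) and from -0.26 to 0.58 in healthy dogs (mean 0.12 ± 0.26, SD, n = 8). Their part in the DUSP1 difference between the groups was not tested.

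KLF9 moved with the monocyte markers. The relation had r = 0.786 (permutation p = 1e-04, adjusted p of 0.00360) and rho = 0.636 (permutation p = 0.00307, adjusted p of 0.0737), so that only r passed. AD dog 20 was lowest in both measures, at -1.43 for KLF9 and -1.20 for the monocyte markers. Without the 2 dogs farthest from the median of the markers r was 0.624, and with slide means removed it was 0.790. No other relation passed. The nearest was ZBTB16 with the red cell markers, at r = 0.647 (permutation p = 0.00217, adjusted p of 0.0521) and rho = 0.642 (permutation p = 0.00283, adjusted p of 0.0737), with r of 0.574 without 2 dogs and 0.652 with slide means removed.

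For FKBP5, the relation to the neutrophil markers had r = 0.419 (permutation p = 0.0643, adjusted p of 0.356) and rho = -0.0662 (permutation p = 0.780). Without the 2 dogs farthest from the median of the markers, r was -0.445. For the share of probes above background no relation of the 8 genes passed, with r from -0.0977 to 0.323.

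**Figure D5:**
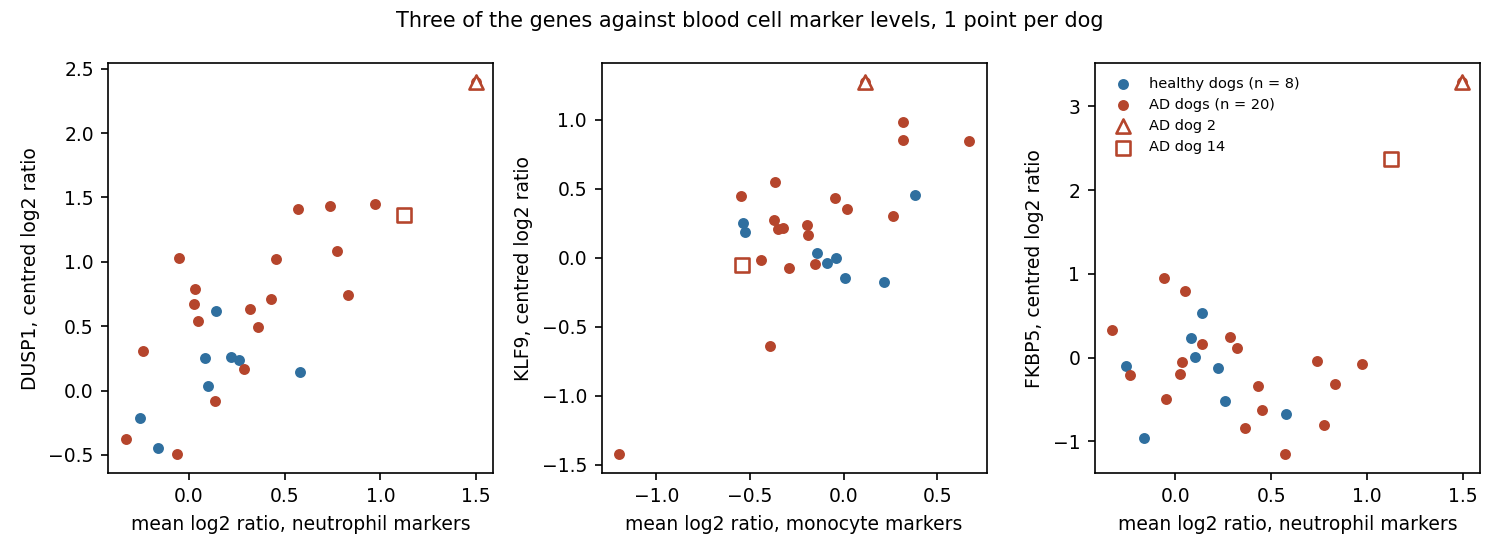
Centered log2 ratio of DUSP1, KLF9 and FKBP5 (y axes) against the mean log2 ratio of neutrophil, monocyte and neutrophil markers (x axes), 1 point per dog, with healthy dogs in blue and AD dogs in red. DUSP1 follows the markers over all AD dogs (r = 0.813), KLF9 has AD dog 20 at the lower left end, and FKBP5 has AD dogs 2 and 14 far above all other dogs.

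The genes whose levels over the 20 AD dogs were most like each member were ranked by r among 12764 probes that every array read above background for the dog's RNA. They were chosen for the highest r, so no test is given. FKBP5 was most like KMO (r = 0.844), CCRN4L (0.840) and BCL2A1 (0.831), but without AD dogs 2 and 14 these fell to 0.425, 0.442 and 0.130. PER1 was most like ZFPM2 (0.840), QPCT (0.810) and RGS2 (0.807), with 0.867, 0.567 and 0.708 without the same dogs, and in healthy dogs they gave 0.621, -0.408 and -0.670. DUSP1 was most like NFKBIA (0.882), PKLR (0.851) and FOSL2 (0.843). ZBTB16 had the closest neighbors, ABTB1 (0.955), RGS19 (0.953) and SLC4A2 (0.951), though in healthy dogs r with ABTB1 was -0.202.

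For NR3C1 the nearest were IRGQ (0.864), HNRNPH1 (0.856) and RRP8 (0.856), and in healthy dogs they gave 0.403, 0.751 and 0.767. TSC22D3 was most like ARHGAP26 (0.797), ZCCHC6 (0.786) and SECISBP2L (0.771). For KLF9, CD33 (0.856) and PPP2R2D (0.834) were among the 3 most alike. SGK1 was most like TPM3 (0.776), RHOA (0.776) and TMEM66 (0.771).

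The other genes of the pathway did not pass the threshold either, with 0 called in each list. Of 17 measured chaperones, co-regulators and related genes of the receptor, none had an unadjusted p under 0.05 as higher and 1 as lower. This was NR3C2, the mineralocorticoid receptor, with a difference of -0.57 (SE 0.261, unadjusted p of 0.0377 in limma). The median over the list was -0.01, equal to that over all probes at this precision.

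Of 20 other genes known to be induced by glucocorticoids, 3 had an unadjusted p under 0.05 as higher and 1 as lower, with a median of 0.07. The higher ones were DDIT4 at 0.56 (unadjusted p of 0.00474 in limma), NFKBIA at 0.32 (0.0229) and CXCR4 at 0.39 (0.0373), and CXCR4 was named after its value was seen. The lower one was THBS1 at -0.66 (unadjusted p of 0.0211). DDIT4 encodes an inhibitor of mTOR signaling and NFKBIA the inhibitor of NF-kappaB. In 19 of 20 AD dogs DDIT4 was above the healthy mean.

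Of 14 inflammatory genes known to be repressed by glucocorticoids, IL8, the chemokine that attracts neutrophils, was the only one with an unadjusted p under 0.05, at 0.65 and higher in AD dogs (0.0299 in limma). The median of this list was -0.03. Among 11 clock genes, RORA alone had such a p, at -0.62 and lower in all 20 AD dogs than the healthy mean (unadjusted p of 0.000812, adjusted p of 0.490). The paper lists RORA among its genes called lower in AD dogs, and its real-time PCR also found RORA lower. The clock list had a median of -0.11. Among 17 immediate early genes, which respond within minutes to stimulation and to handling, JUNB (0.53), KLF4 (0.27) and ZFP36 (0.53) were higher in AD dogs at unadjusted p of 0.0119, 0.0251 and 0.0409 in limma, with a median of 0.14, and no gene of the list was lower at such a p.

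Of the 8 marker lists, the neutrophil list was the only one with a gene at an unadjusted p under 0.05, PGLYRP1, a peptidoglycan-binding protein of granules, at 0.98 (0.0204 in limma) and higher in AD dogs. The medians of the lists were 0.23 for 12 neutrophil markers, 0.31 for 9 red cell markers, 0.05 for 13 T cell markers, 0.02 for 8 B cell markers, -0.03 for 7 eosinophil and basophil markers, -0.08 for 9 monocyte markers, -0.15 for 6 NK and cytotoxic markers and -0.25 for 7 platelet markers. The mean level of each list overlapped between AD and healthy dogs.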

How the data were processed

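Whole blood RNA of 20 AD and 8 healthy dogs was measured on 2-color arrays against a common reference. The authors deposited scanner files with spot intensities that Agilent Feature Extraction (10.7.3.1 per the labels, module 10.10.1.1 per the file headers) had background-subtracted and dye-normalized on a linear scale, with flags, and a table of log10 ratios. That table equaled the log10 ratio of the deposited scanner files in 100% of values within 0.001, and 94.2% of these equaled the log10 ratio of the deposited processed signals.

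With R 4.3.3 and limma 3.58.1, control spots were left out, outlier spots set to missing, spots of 1 probe averaged, and log2 ratios of the processed signals centered on each array's median over 30202 probes. A probe was kept if it was above background on any array and any group median in either channel exceeded 100. AD and healthy dogs were compared with lmFit and eBayes, with Benjamini-Hochberg adjustment over all 30202 probes and the threshold used in the study's results, 0.085. Correlations were tested by permutation, with 100000 draws for AD dogs and every ordering for healthy dogs. The script was tested on simulated data.

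The genes and gene lists were chosen with earlier results of these data known. Named were all members, at most 3 genes of each other list with the smallest unadjusted p under 0.05, and the 3 genes most like each member, of which 1 is not reported here. The lists covered receptor chaperones and co-regulators, induced, repressed, clock and immediate early genes, and markers of 8 blood cell types. A gene was read from its brightest probe. Alternatives varied the filter, outlier marks, background correction, centering, reference, source of values, slide, scan day, dog number, weights, variance model, probe choice and arrays included. Leaving out each array in turn, the reference channel alone, the slides within AD dogs and r or means without 2 dogs were added after the data were seen. No coordinates were converted. The number of arrays limits the precision. Each array is 1 dog.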

Additional observations from a re-analysis of the deposited data

How the results depend on the processing

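The number of probes passing the threshold was 0 in 19 of 23 alternatives. It was 3 without a filter on signal, 1 with a filter for the dog's channel above background on at least 8 arrays, 1009 with array weights and 1251 with the dog's channel alone. The number of members passing was 0 in 22 of 23 alternatives and 3 with the dog's channel alone. The cause of these changes was not tested. Over all alternatives, 186 of 192 differences of single members kept their direction. NR3C1 reversed to 0.00445 without slide 2 and to 0.0313 as the mean of its probes, FKBP5 to -0.00392 without slide 3, PER1 to -0.37 with the dog's channel alone, and ZBTB16 to 0.12 without slide 3 and to 0.0801 as the mean of its probes. With each array left out in turn, 223 of 224 differences kept their direction. NR3C1 ranged from -0.21 to 0.0279 and reversed without healthy dog 2. DUSP1 kept an unadjusted p under 0.05 in 28 of 28 of these fits (0.57 to 0.73) and TSC22D3 in 26 of 28 (0.28 to 0.45).

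The dog numbers did not pair the samples, since the correlation of same-numbered dogs over 8 pairs was -0.359 to 0.425 and over 0.1 in 4. With the dog number as a replicate block, 0 probes and 0 members passed the threshold, and 5177 probes in place of 1847 had an unadjusted p under 0.05, with 2 members in both. Dog numbers 9 to 20 occurred only among AD dogs. The difference in this fit therefore rested on AD dogs 1 to 8 against the 8 healthy dogs, unlike the main fit. The median r over the member pairs moved from 0.294 to 0.168 in AD dogs with slide means removed. In healthy dogs it moved from -0.170 to -0.0977 with slide means removed and to -0.0986 with the mean of all probes of a gene. In the other 5 and 3 alternatives it stayed within 1.5 times. Centering over all probes raised the share of lower values among probes with an unadjusted p under 0.05 from 73.0% to 83.3%, and it was 61.8% without a filter, 53.4% in the dog's channel alone, 55.8% with array weights, 61.001% with the replicate block, 62.4% without slide 2 and 60.7% without slide 5. Dim signals limited KLF9 on the arrays of scan day 5, most of all in AD dog 20, and the third ZBTB16 probe. With 8 healthy dogs on 2 slides, a difference between groups cannot be told apart from one between slides.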

Other observations

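In AD dogs 2 and 14, other genes that glucocorticoids are known to induce did not move as 1 group. Of 20 such genes, both dogs were among the 5 highest AD dogs for 3 and among the 5 lowest for 3. For such counts in this section, the share over all probes was not computed. The genes in this section were named after their values were seen. BCL6, a transcriptional repressor, was 1.13 and 0.78 in these dogs, above the highest healthy dog at 0.53. CRISPLD2 was 1.15 and 0.62, ranks 1 and 2 of the AD dogs, with the highest healthy dog at 0.94. By contrast MT2A, a metallothionein, was -2.80 and -1.74, ranks 20 and 15. TNFAIP3, a brake on NF-kappaB, was -0.60 and -1.001, ranks 18 and 19. CD163, the hemoglobin scavenger receptor of macrophages, was -0.27 and -1.68, ranks 7 and 19. NR3C2, the mineralocorticoid receptor, was -1.63 and -2.52, ranks 18 and 20, below the lowest healthy dog at -1.14.

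Some granule genes of neutrophils were high in both dogs. PGLYRP1 was 3.44 in AD dog 2 and 3.52 in AD dog 14, the highest values of all AD dogs, where the highest healthy dog read 1.23. MMP8, a collagenase of neutrophil granules, was 2.20 and 2.62, also ranks 2 and 1, against at most 1.45 in healthy dogs. LCN2 was 2.13 in AD dog 2 and -0.14 in AD dog 14, ranks 3 and 11. NFIL3, a clock-controlled factor, was 1.23 and 0.76, ranks 1 and 2, with the highest healthy dog at 0.41. Of 17 immediate early genes, both dogs were among the 5 highest AD dogs for 5 and among the 5 lowest for 0. Both lay above the highest healthy dog for 5 of these 17 genes and below the lowest for 1. Of 14 inflammatory genes known to be repressed by glucocorticoids, none had both dogs among the 5 lowest. IFNG was 0.39 and 2.48, ranks 4 and 1. Over all probes kept, the deviations of these arrays from the AD mean correlated with r = 0.371, against a median of -0.047 over all pairs of AD arrays and a highest value of 0.606.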
